A study of Homo sapiens with 11 samples.

Results

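The 9 genes described here encode macroH2A and the other replacement histone variants: MACROH2A1, MACROH2A2, H2AZ1, H2AZ2, H2AX, H2AJ, H3-3A, H3-3B and H1-10. They were named by their products and not picked by a measured value, but earlier results of these data were known. They were read from tables of 23167 genes. Of the 9 genes, 8 passed the filter on low counts, and MACROH2A2 did not. RNA-seq was done on MDA-MB-231, an established human triple-negative breast cancer cell line, in 2 WT libraries and 2 mH2A1.1 KD libraries. The KD cells had received siRNA at 11 nM against mH2A1.1, an isoform of the MACROH2A1 product, and the WT cells the transfection reagent alone, and both were collected on day 3. The siRNA behind the RNA-seq libraries is not named in the sources used here, the knockdown is transient, and the control carried no other siRNA, so the effect of loss of mH2A1.1 and of the presence of any siRNA cannot be told apart. ChIP-seq of WT cells gave 1 list of enriched regions for an antibody to mH2A1.1 and 1 for an antibody to total mH2A1.

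Most histones are made in S phase from clustered genes without introns, whereas replacement variants are made throughout the cell cycle and are placed into chromatin by dedicated chaperones and remodelling complexes. MacroH2A carries a large C-terminal macrodomain, and the macrodomain of mH2A1.1, unlike that of the splice isoform mH2A1.2, binds ADP-ribose. H2A.Z and H3.3 are found at promoters and enhancers, H2AX is phosphorylated around DNA double-strand breaks, and H2A.J and H1.10 are less studied variants of H2A and of the linker histone.

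The counts do not separate the isoforms of MACROH2A1, because reads on all its exons were summed. The exon that sets mH2A1.1 apart is shown with the exon used in its place for mH2A1.2, since the knockdown depends on the difference. Both were read from hg38 in the direction of the transcript on the minus strand, as chr5:135350823-135350913 for mH2A1.1 and chr5:135352946-135353045 for mH2A1.2, and the capitals mark the sites matched by the siRNAs that the study lists for each isoform.
mH2A1.1 exon: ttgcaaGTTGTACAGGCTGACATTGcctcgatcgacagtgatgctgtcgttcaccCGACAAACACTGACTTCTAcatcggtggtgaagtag
mH2A1.2 exon: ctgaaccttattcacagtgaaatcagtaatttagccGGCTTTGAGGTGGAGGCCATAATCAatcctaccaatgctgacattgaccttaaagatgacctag
The mH2A1.1 exon has 91 bases and is in 1 of the 6 transcripts that GENCODE release 44 annotates as protein-coding, and the mH2A1.2 exon has 100 bases and is in 3 of them. No protein-coding transcript holds both, and the MANE Select transcript, the reference choice for the gene, has the mH2A1.2 exon as exon 6 of 9.

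H3.3 and H2A.Z are each encoded by a pair of genes, and within the coding sequence their reads can be told apart only where the bases differ, beside the untranslated exons that are counted too. The first 60 coding bases of each gene are shown to make this visible, with capitals where the genes of a pair differ.
H3-3A: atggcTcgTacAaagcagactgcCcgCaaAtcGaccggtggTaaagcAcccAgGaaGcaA
H3-3B: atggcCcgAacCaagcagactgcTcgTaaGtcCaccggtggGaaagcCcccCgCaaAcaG
H2AZ1: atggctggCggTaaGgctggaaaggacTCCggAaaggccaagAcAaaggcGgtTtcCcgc
H2AZ2: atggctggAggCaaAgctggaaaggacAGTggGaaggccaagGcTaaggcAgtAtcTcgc
H3-3A and H3-3B were identical at 78.4% of 408 coding bases and gave the same protein, with 0 of 136 codons differing after translation, stop codon included. The longest stretch they shared without a difference was 14 bases. H2AZ1 and H2AZ2 were identical at 80.5% of 384 coding bases, differed in 3 of 128 codons after translation, and shared at most 23 bases without a difference. No gene with a symbol that marks it as an H2AZ or H3-3 pseudogene is listed in the tables used here. Reads that match further copies in the genome were not examined.

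The WT libraries held 9794674 and 7856892 counts and the KD libraries 5584962 and 2309549, replicate 1 first in each, so values of KD replicate 2 are the least precise. KD replicate 2 held 0 counts on chromosomes 22 and X and 30 on chromosome 21, and genes of these chromosomes, none of them a member, were left out of the fit. Across genes, the Pearson's r of log2 levels was 0.993 for the pair of WT libraries and 0.957 for the KD pair, and genes are not independent replicates. The expected markers of the cell line were present, with VIM, CD44, CAV1 and EGFR at 2410, 1323, 973 and 660 CPM (counts scaled by library size) in WT cells. ESR1 and PGR had 0 counts in all 4 libraries, CDH1 was at 2.41 CPM and EPCAM at 21 CPM. Markers of other cell types were low in WT cells (PECAM1 3.23, COL1A1 9.18 and ACTA2 3.17 CPM), and PTPRC is not in the tables used here. All 3 were higher in KD by fitted log2 fold change, by 0.65, 1.42 and 0.07, their levels in KD were 4.87, 25.7 and 3.69 CPM, and their part in the results below was not tested.

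In WT cells the members spanned a wide range of levels, which are compared here per kilobase of the MANE Select transcript, since longer transcripts give more reads. H2AZ1 was highest at 264 ± 14.4 CPM per kb (SD, n = 2 for all levels here), followed by MACROH2A1 at 203 ± 3.23, H3-3B at 133 ± 2.39, H2AX at 125 ± 9.21, H3-3A at 116 ± 1.61 and H2AZ2 at 114 ± 3.96. H2AJ followed at 20.5 ± 0.690 and H1-10 at 14.5 ± 0.0493 CPM per kb, and MACROH2A2 was at 0. The WT libraries of neighbours in this order did not overlap, except for H3-3A and H2AZ2, but H3-3B and H2AX differed by less than the SD of H2AX. In KD cells, H2AX at 158 ± 50.8 CPM per kb overlapped both MACROH2A1 at 150 ± 9.71 and H3-3B at 126 ± 8.97, and H2AJ overlapped H1-10. The order depended on the length used, because the merged exons of all annotated transcripts are much longer for some genes: per kilobase of merged exon, H2AX was highest at 125 ± 9.21 and MACROH2A1, with 17013 bases of merged exon against 1917 in the MANE Select transcript, was sixth at 22.9 ± 0.364 CPM per kb. In CPM without a length, MACROH2A1 was above 96.7% of the tested genes in WT cells and H3-3B above 96.1%, and H2AJ was above 24.1%.

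**Figure D1:**
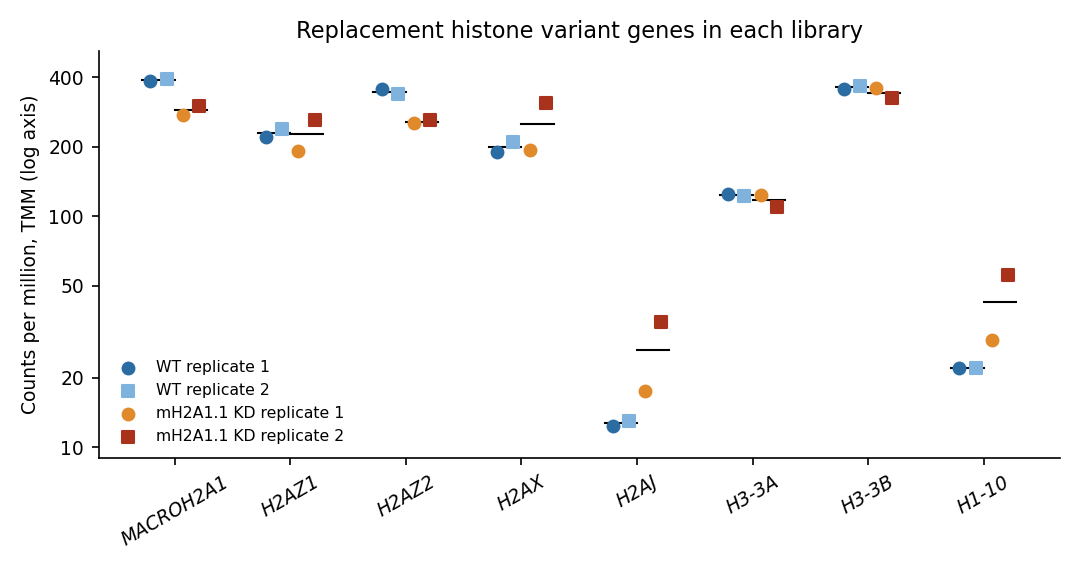
CPM after TMM scaling (log axis) of the 8 member genes with counts, for WT replicates 1 and 2 (blue) and mH2A1.1 KD replicates 1 and 2 (orange and red), with a bar at the mean of each group. MACROH2A1 and H2AZ2 were lower in both KD libraries than in either WT library, and H2AJ and H1-10 were higher. MACROH2A2 had 0 counts and is not drawn.

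The comparison of WT with mH2A1.1 KD cells asked whether the other variant genes change when an isoform of mH2A1 is reduced. Genes were called at a fold change over 1.5 with a Benjamini-Hochberg adjusted p under 0.1 from the quasi-likelihood test of edgeR. No member was called, and the test called 0 of all 10963 genes (0%), with 2540 genes at an unadjusted p under 0.05. At that unadjusted p, 2 members were lower in KD (MACROH2A1 and H2AZ2; 11.4% of all tested genes) and 2 were higher (H2AJ and H1-10; 11.8% of all). In the same 4 genes the libraries of the groups did not overlap. All KD values were under all WT values in 32.4% of the tested genes and over them in 32.5%, so a lack of overlap with 2 libraries a group was common. DESeq2 called 5.86% of 7642 genes lower and 5.59% higher, and among the members it called H1-10 alone.

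MACROH2A1, the source of both mH2A1 isoforms, was at 385 and 394 CPM in WT and 274 and 300 CPM in KD. The KD libraries were apart from the WT libraries and below them. The log2 fold change was -0.44 ± 0.173 (standard error, SE, with adjusted p = 0.205 in edgeR), a 1.36-fold lower level, and it lay between -0.50 and -0.37 in all 14 settings of the analysis. DESeq2 gave -0.46 with an adjusted p of 0.181, and of 0.00312 with all chromosomes included. With the length and GC correction edgeR gave -0.40 with an adjusted p of 0.0900, and 0.0343 with the replicate block added. The fold change stayed under 1.5 in each of these. A reduction of mH2A1.1 alone and a reduction of both isoforms cannot be told apart in these counts. The paper reports, from separate assays of the isoforms, that its knockdown depleted mH2A1.1 protein and not mH2A1.2 protein.
MACROH2A2, which encodes the paralog mH2A2, had 0 counts in each of the 4 libraries. A count of 0 allows up to 3 counts, or 0.315 and 0.395 CPM in WT replicates 1 and 2 and 0.567 and 1.42 CPM in KD replicates 1 and 2. Set against the 3658, 2993, 1449 and 635 counts of MACROH2A1, it allows MACROH2A2 a share of macroH2A counts of up to 0.0820%, 0.1%, 0.207% and 0.472%. These limits cover counting error only. Of 803 protein-coding genes with at least as much exon (14988 bases), 65 (8.09%) had no count in any library. The gene overlaps AIFM2 on the opposite strand over 14060 bases, and AIFM2, which encodes a suppressor of ferroptosis, was counted 398 and 341 times in WT and 260 and 154 times in KD. Reads were counted with the default strand setting after a kit that marks strand, and whether the setting matched the kit was not tested, which bears on the 0 of MACROH2A2 and on H3-3B, described below, which also has a gene on its opposite strand.

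The groups were apart for H2AZ2 and overlapped for H2AZ1. H2AZ2 was at 355 and 338 CPM in WT and at 252 and 262 CPM in KD, so that the groups did not overlap. Its log2 fold change was -0.43 ± 0.171 (SE, adjusted p = 0.207 in edgeR) and -0.10 after correction for gene length and GC content. DESeq2 gave -0.45 for H2AZ2 with an adjusted p of 0.193 (SE 0.225). With all chromosomes included it gave -0.45 with an SE of 0.11 and an adjusted p of 0.00292, in the fit with the chromosomes nearly without counts in KD replicate 2. These values are close to those of MACROH2A1. H2AZ1 was at 220 and 238 CPM in WT and at 191 and 261 CPM in KD, with the KD libraries on either side of the WT libraries and a log2 fold change of -0.02 ± 0.209 (SE, adjusted p = 0.958 in edgeR). After the length and GC correction H2AZ1 was at -0.16, below H2AZ2. In DESeq2 with the correction the pair was at -0.08 (H2AZ1) and -0.10 (H2AZ2). The order of their fold changes thus turned or nearly closed, but the correction used the merged exons, with 49.2% GC for H2AZ1 and 41.6% for H2AZ2. The MANE Select transcripts are closer in GC content, at 44.7% and 43.4%, and a correction on them was not run.
H2AZ2 accordingly gave 61.7% and 58.7% of the H2A.Z counts in WT replicates 1 and 2 and 56.8% and 50.1% in KD replicates 1 and 2. The 95% Clopper-Pearson intervals were 60.4% to 63.0% and 57.2% to 60.2% in WT and 54.8% to 58.8% and 47.1% to 53.1% in KD. The mean was 60.2% ± 2.14 in WT and 53.5% ± 4.71 in KD (SD, n = 2), a difference of -6.74 percentage points (exact permutation test, two-sided, p = 0.333, the smallest p that 2 libraries against 2 allow). The share was lower in both KD libraries than in both WT libraries, but the interval of KD replicate 1 overlapped that of WT replicate 2, and without KD replicate 2 the difference was -3.41 points. The intervals of the 2 WT libraries did not overlap each other, so the intervals measure counting error and not the spread between libraries. The shares come from counts without the length and GC correction.

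Before any correction the H3.3 genes lay close to their WT levels in KD. H3-3B was at 356 and 365 CPM in WT and 358 and 324 CPM in KD, and H3-3A at 125 and 122 CPM in WT and 124 and 110 CPM in KD. The groups overlapped for both genes. The log2 fold change was -0.08 for each (SE 0.173 and 0.175, adjusted p = 0.778 and 0.780 in edgeR). After the length and GC correction H3-3A was at 0.21 and H3-3B at -0.18, in opposite directions.
H3-3B gave 74% and 74.9% of the H3.3 counts in WT replicates 1 and 2 and 74.3% and 74.7% in KD replicates 1 and 2. The difference of the means was 0.0442 percentage points (exact permutation test, two-sided, p = 1), within the SD of 0.606 in WT and 0.253 in KD (n = 2). With 2 libraries a group, this gives no limit on a small difference, and the share was taken from counts without the length and GC correction. Counted per kilobase of the MANE Select transcript, the same genes were at 133 and 116 CPM per kb in WT, so the larger count of H3-3B came with a longer transcript (2705 against 1070 bases). UNK, which encodes a zinc finger protein and overlaps H3-3B on the opposite strand over 1088 bases, was counted 349 and 267 times in WT and 172 and 73 times in KD, with a log2 fold change of -0.11.

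**Figure D2:**
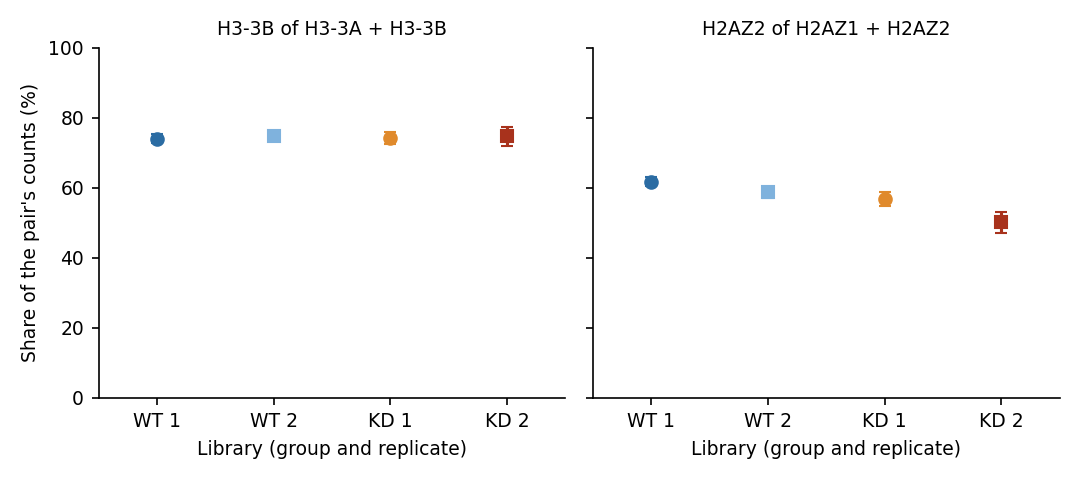
Share of a gene pair's counts (percent) taken by H3-3B (left) and by H2AZ2 (right) in each WT and KD library, with 95% Clopper-Pearson intervals as bars. The H3-3B share lay between 74% and 74.9% in the 4 libraries, and the H2AZ2 share ranged from 61.7% in WT replicate 1 to 50.1% in KD replicate 2.

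H2AX was at 189 and 209 CPM in WT and 194 and 308 CPM in KD. KD replicate 1 lay among the WT libraries and KD replicate 2 above them. The log2 fold change was 0.33 ± 0.250 (SE, adjusted p = 0.417 in edgeR) and rested on KD replicate 2, since it was -0.03 without that library and 0.62 without KD replicate 1. It was -0.31 after the length and GC correction, the opposite direction.
H2AJ was at 12.4 and 13 CPM in WT and 17.6 and 35.0 CPM in KD, on 118 and 99 counts in WT and 93 and 74 counts in KD. Both KD libraries were above both WT libraries, and the KD libraries were much further from each other than the WT libraries were. The log2 fold change was 0.97 ± 0.337 (SE, adjusted p = 0.194 in edgeR), a 1.96-fold higher level, and DESeq2 gave 0.99 with an adjusted p of 0.101. It was 0.47 without KD replicate 2 and 1.45 without KD replicate 1.
H1-10, the gene of the linker histone variant H1.10, had the same form. It was at 22 and 22.1 CPM in WT and 29.1 and 55.8 CPM in KD, so the KD libraries were above the WT libraries by unequal amounts. The log2 fold change was 0.90 ± 0.315 (SE, adjusted p = 0.194 in edgeR), and DESeq2 called it higher at 0.90 with an adjusted p of 0.0958. DESeq2 no longer called it with the genes of chromosomes 21, 22 and X included (adjusted p = 0.137). The log2 fold change of H1-10 was 0.40 without KD replicate 2 and 0.21 after the length and GC correction.

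**Figure D3:**
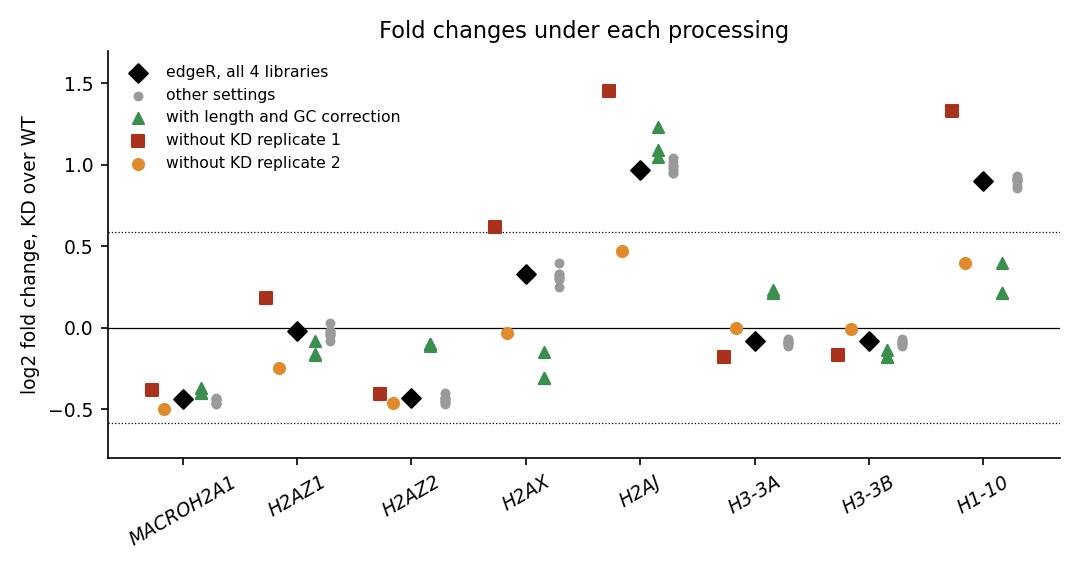
Log2 fold change of each member (KD over WT) in edgeR with all 4 libraries (diamonds), with the length and GC correction (triangles), without KD replicate 1 (squares), without KD replicate 2 (larger circles) and in the other settings (small circles), with dotted lines at a fold change of 1.5. MACROH2A1 stayed between -0.50 and -0.37, whereas H2AJ ranged from 0.47 to 1.45 and H1-10 from 0.21 to 1.33.

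GC content moved with these differences across all genes. The median log2 fold change was -0.48 for the 1955 tested genes with exons under 40% GC, 0.04 for the 1953 genes between 45% and 50%, and 0.54 for the 252 genes at 65% or more. The trend was steeper in KD replicate 2, whose median log2 ratio to the WT mean (with 0.5 CPM added) ran from -0.81 to 0.87 between the lowest and highest of these bins, against -0.26 to 0.21 in KD replicate 1.
H2AX, with 66.8% GC in its exons, and H1-10, with 68.6%, lay in the highest bin. The value of H2AX (0.33) was below that bin's median and the value of H1-10 (0.90) above it. H3-3A (41.7% GC) and H2AZ2 (41.6%) lay in the bin from 40% to 45%, with a median of -0.22, H3-3A above it and H2AZ2 below.
MACROH2A1 (45.4%), H2AZ1 (49.2%) and H3-3B (49.4%) lay in the bin with the median of 0.04. MACROH2A1 at -0.44 was below the middle 50% of the genes of that bin, which began at -0.20. By their MANE Select transcripts, H2AZ1 (44.7%) and H3-3B (43.1%) would lie in the bin from 40% to 45%, and MACROH2A1 (51.1%) in that from 50% to 55%. H2AJ was in the bin from 40% to 45% by its merged exons (44.1% GC) but had 63.1% GC in its MANE Select transcript, which is 620 of 3332 bases, and genes from 60% to 65% GC had a median of 0.49. Its corrected log2 fold change of 1.05 used the merged exons. The part of GC content in the differences of single members was not tested.

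**Figure D4:**
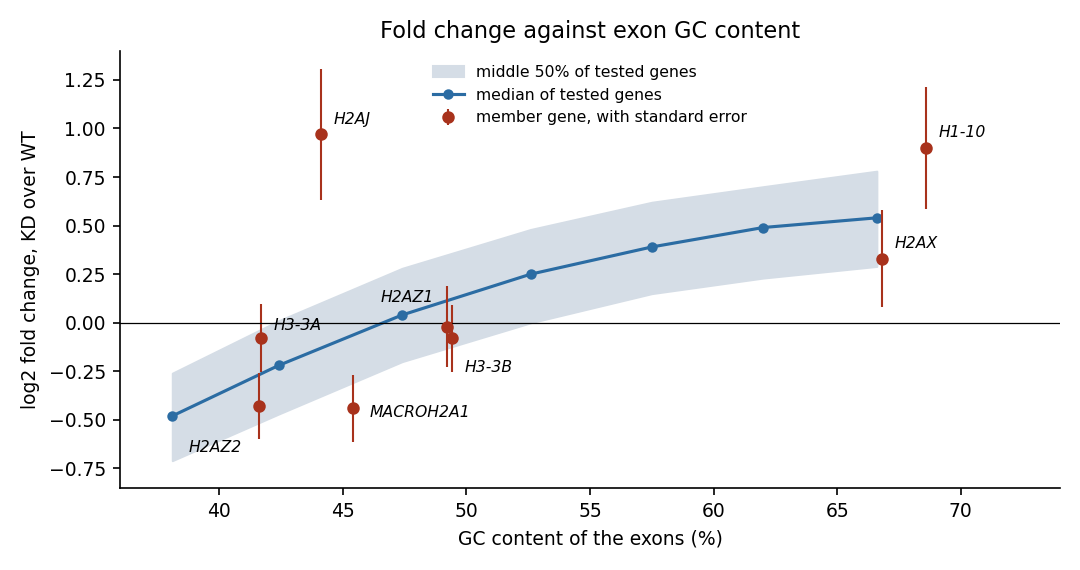
Log2 fold change (KD over WT) against the GC content of the merged exons (percent), as the median (line) and the middle 50% (band) of the tested genes in 7 bins and as the 8 tested members with their standard errors (red). H2AX lay below the median of the highest bin and H1-10 and H2AJ above the band, while MACROH2A1 lay below it.

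The genes that place or modify these variants were read from 6 lists (43 genes, of which 40 are in the tables used here and 32 were tested). The test called 0 of the 32, with 18 fitted lower and 14 higher in KD. Of all 10963 tested genes, 5416 were fitted lower and 5547 higher. The median log2 fold change of the 32 list genes was -0.13, against 0.01 for all tested genes, and -0.07 after the length and GC correction. At an unadjusted p under 0.05, 3 were lower and 3 higher, beside 11.4% and 11.8% of all tested genes. DESeq2 called 1 lower and 1 higher of the 29 with an adjusted p, beside 5.86% and 5.59% of all.
Of the macroH2A partners, the 3 tested genes were fitted lower, but only 1 of them, HELLS, had an unadjusted p under 0.05 in edgeR. HELLS, a chromatin remodeller, was at 229 CPM in WT and 127 CPM in KD, with a log2 fold change of -0.84 (adjusted p = 0.194 in edgeR, 0.0409 in DESeq2) that was -0.37 after the length and GC correction. Of the 14 genes of H2A.Z exchange, 4 were fitted lower and 10 higher. Their median log2 fold change of 0.161 became -0.0031 after the length and GC correction. YEATS4, a subunit of the exchange complexes, was at 43.2 CPM in WT and 23.5 CPM in KD (log2 fold change -0.82, adjusted p = 0.194 in edgeR). RUVBL2, an ATPase of these complexes, was at 122 CPM in WT and 247 CPM in KD, with a log2 fold change of 1.01 (adjusted p = 0.194 in edgeR, 0.0497 in DESeq2). Its KD libraries were far apart at 152 and 342 CPM, the corrected log2 fold change was 0.54, and DESeq2 no longer called it with all chromosomes included (adjusted p = 0.143).
In 2 of the 4 tested genes of the H3.3 chaperone list the fitted change was negative. UBN2 had -0.39 and UBN1 0.15 (adjusted p = 0.258 and 0.588 in edgeR), both of them subunits of the HIRA complex. HIRA and CABIN1 on chromosome 22 and ATRX on chromosome X were outside the fit. Of the H2AX signalling genes, 4 of 5 were fitted lower, led by the kinase ATM at -0.58 (adjusted p = 0.224 in edgeR), and the ubiquitin ligase RNF168 was at 0.35 (adjusted p = 0.265 in edgeR). The median of this list was -0.275, and -0.251 after the length and GC correction.
Among the general histone chaperones, 4 of 5 were fitted lower, but their median log2 fold change of -0.199 became 0.0707 after the length and GC correction. NAP1L1 had -0.59 and SSRP1, a subunit of FACT, 0.32 (adjusted p = 0.227 and 0.384 in edgeR). Of the other replacement variants, CENPA, the centromeric H3, was the only one tested, at 27.2 CPM in WT and 20 CPM in KD (log2 fold change -0.42, adjusted p = 0.250 in edgeR).

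Replication-dependent histone genes are named here as a group only. Of 60 in the tables, 34 were tested, 31 of them fitted higher and 3 lower, with a median log2 fold change of 0.765 that was 0.167 after the length and GC correction. None was called by edgeR, 8 of the 34 were higher at an unadjusted p under 0.05 (11.8% of all tested genes), and DESeq2 called 8 of 31 higher (5.59% of all). Summed over the group, the level was 4910 and 5755 CPM in WT and 5262 and 9999 CPM in KD, so KD replicate 2 alone stood above the WT libraries. The 9 members summed to 1664 and 1701 CPM in WT and to 1439 and 1655 CPM in KD. The difference between the groups of genes was not tested.

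The genes whose pattern over the 4 libraries was closest to that of MACROH2A1 were ZMYND11, CENPJ and GDE1, with root mean square distances of 0.0342, 0.0437 and 0.0437 between centred log2 CPM values. ZMYND11 was at 136 and 141 CPM in WT and 101 and 103 CPM in KD. Of the 4690 other genes with at least 50 CPM, 79 were within 0.1.

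ChIP-seq peaks were called by the authors on a grid of 3 kb, without replicates, and are given as positions in hg38. Peaks of mH2A1.1 lay within 500 bp of the annotated gene start in 4 of the 9 members, MACROH2A1, H2AZ2, H2AX and H3-3B, beside 46.9% of the 10943 tested genes with an annotated start and 24.2% of the genes without a count. Peaks of total mH2A1 lay there in 2 members, MACROH2A1 and H3-3B, beside 18.4% of the tested genes. Both genes that were lower in KD at an unadjusted p under 0.05, MACROH2A1 and H2AZ2, had a start in an mH2A1.1 peak. Neither of the genes that were higher at that p had one. MACROH2A1 is the gene that the siRNA targets, and H2AZ2 was at -0.10 after the length and GC correction. The share of starts in a peak among all genes lower or higher in KD was not computed. A link between peaks and direction was not tested and cannot be read from so few genes.
MACROH2A1 had the widest of these peaks, chr5:135390001-135411000 for mH2A1.1 (21000 bp) and chr5:135399001-135411000 for mH2A1. At least this width was reached by 11.4% of all mH2A1.1 peaks. The 3 mH2A1.1 peaks in the gene, the last of them at its 3′ end, covered 22.2% of it, and those of mH2A1 5.97%. MACROH2A2, without a count, had no peak of either kind at its start, the nearest being an mH2A1 peak 2544 bp away, and mH2A1 peaks covered 20.1% of the gene against 5.02% for mH2A1.1.
H2AZ2 and H2AX each lay under an mH2A1.1 peak of 12000 bp, chr7:44838001-44850000 and chr11:119085001-119097000. The peak covered 47.4% of H2AZ2 and all of the short H2AX gene, as was so for 9.81% of the tested genes. Neither had an mH2A1 peak at its start, with the nearest at 16914 bp for H2AZ2 and 7536 bp for H2AX. For its analyses the paper kept only mH2A1.1 peaks shared with total mH2A1, which is 11849 of 30687 peaks in these lists. The peaks over H2AZ2 and H2AX are not among them. H2AZ1 had no peak at its start, and its nearest mH2A1.1 peak lay 2355 bp downstream of it, past the end of the gene.
H3-3B was counted through its most upstream annotated start, which both lists cover with chr17:75783001-75786000, a peak that also holds the start of UNK. The MANE Select start of H3-3B is 6114 bp further downstream and 3222 bp from that peak, so that by MANE Select starts 3 of the 9 members had an mH2A1.1 peak. H3-3A had none at its start, but an mH2A1 peak covered 39.5% of the gene at its 3′ side. H2AJ and H1-10 had no peak in the gene, with the nearest mH2A1.1 peak 419405 bp from H2AJ and 28715 bp from H1-10.

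**Figure D5:**
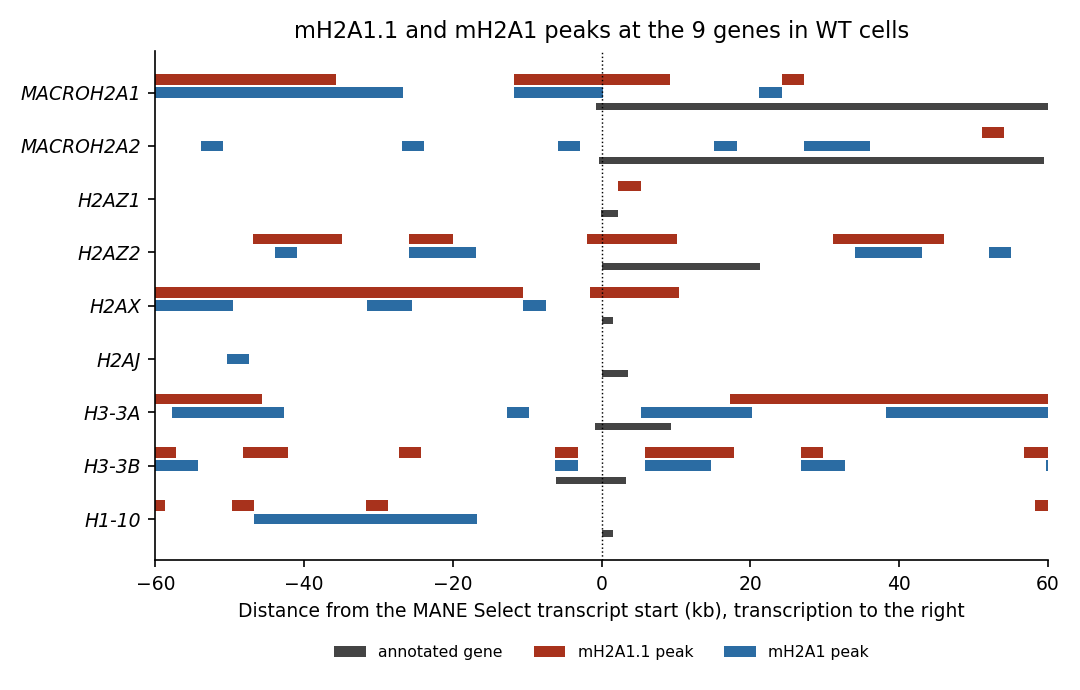
Peaks of mH2A1.1 (red) and total mH2A1 (blue) and the annotated gene (grey) within 60 kb of the MANE Select transcript start of each member, with distance in kb and transcription to the right. An mH2A1.1 peak lies over the start of MACROH2A1, H2AZ2 and H2AX, and an mH2A1 peak over that of MACROH2A1.

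The promoters of the members were searched for a sequence element that was chosen with earlier results known. CCAAT, the box bound by NF-Y, was searched on both strands (as CCAAT and ATTGG) in the RefSeq promoters of GRCh38.p14, from 250 bases before to 50 after the transcript start, and all 9 members were matched. It was present 4 times in H2AZ2, H2AX and H3-3B, 3 times in H2AZ1 and H2AJ, 1 time in H3-3A and 0 times in MACROH2A1, MACROH2A2 and H1-10. Thus 6 of the 9 promoters held it at least 1 time, beside 34.6% of 35116 promoters, and 5 held it at least 3 times, beside 3.26%. The 250 bases before the start are printed on the strand of the gene for 3 of the members that hold it, H2AZ2 and H2AX, which had an mH2A1.1 peak there, and H2AJ, which had none, with the box in capitals, at chr7:44848088-44848337 (minus), chr11:119095466-119095715 (minus) and chr12:14774155-14774404 (plus).
H2AZ2: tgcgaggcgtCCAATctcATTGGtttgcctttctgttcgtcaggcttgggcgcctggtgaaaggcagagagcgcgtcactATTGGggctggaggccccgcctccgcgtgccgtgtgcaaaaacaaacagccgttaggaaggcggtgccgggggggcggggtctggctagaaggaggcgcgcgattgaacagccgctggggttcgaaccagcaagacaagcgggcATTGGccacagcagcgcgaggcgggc
H2AX: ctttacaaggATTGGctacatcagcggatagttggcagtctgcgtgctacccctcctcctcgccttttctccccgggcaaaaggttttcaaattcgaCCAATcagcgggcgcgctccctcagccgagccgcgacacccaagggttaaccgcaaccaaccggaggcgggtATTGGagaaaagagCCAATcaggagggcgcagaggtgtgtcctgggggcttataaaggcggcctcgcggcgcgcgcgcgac
H2AJ: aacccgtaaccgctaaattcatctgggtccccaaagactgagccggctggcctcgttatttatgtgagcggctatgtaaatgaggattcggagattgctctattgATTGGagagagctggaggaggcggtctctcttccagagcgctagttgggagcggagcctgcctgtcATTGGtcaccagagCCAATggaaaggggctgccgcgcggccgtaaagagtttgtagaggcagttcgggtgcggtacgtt
The box was as frequent in H2AX, under an mH2A1.1 peak not shared with mH2A1, as in H3-3B, whose MANE Select start has no peak. The members with the box include genes fitted lower (H2AZ2) and higher (H2AJ) in KD. A match is a stretch of letters and was not measured as a binding site.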

How the data were processed

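RNA-seq of 2 WT and 2 mH2A1.1 KD libraries of MDA-MB-231 cells and ChIP-seq of WT cells, 1 library per antibody, were used; the input and the 4 PCHiC samples were not analysed here. The deposited counts are whole reads per gene, which the authors made with STAR 2.5.1 on hg38, a mapping quality filter at 10, removal of duplicates, which can lower highly expressed genes, and htseq-count at its defaults after a stranded kit (whether its strand setting matched the kit was not checked). The authors called peaks against the input, with no replicate, and the deposited files give positions only.

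Counts were fitted with edgeR 4.0.16 (R 4.3.3, TMM factors, filterByExpr, quasi-likelihood test, Benjamini-Hochberg adjustment) without genes of chromosomes 21, 22 and X, and calls used the thresholds of the study. DESeq2 1.42.0, other gene filters and scaling, offsets for gene length and GC content (lowess span 0.3), a replicate block and leaving out each library were alternatives. The fits were also run on simulated data with the same dispersion in all libraries and no GC trend, so that run does not cover the wider KD spread or the GC trend seen here. Of 23167 identifiers, 23061 matched GENCODE release 44. Shares were given 95% Clopper-Pearson intervals and exact permutation tests (scipy 1.17.1), and floors used 3 counts. Nothing in the labels says that libraries came from separate cultures, so p-values measure only the spread between these samples. Between same-numbered libraries, deviations from the group means correlated at 0.236 across genes, and with 2 pairs the numbers were not taken as pairing. The members and lists were chosen with earlier results of these data known. Named are the members, genes overlapping them with counts, for each list the genes called or else the gene with the smallest unadjusted p in each direction, and the 3 genes closest to MACROH2A1. Cell markers, HIRA, CABIN1 and ATRX are named outside this rule.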

Additional observations from a re-analysis of the deposited data

How the results depend on the processing

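Counts of calls depended strongly on the processing. Against 0 lower and 0 higher genes in edgeR, the calls lower and higher in KD were 448 and 427 with DESeq2, 539 and 411 with DESeq2 on all chromosomes, 1115 and 1024 without a filter on low counts, 347 and 238 with the length and GC correction in edgeR, and 182 and 308 with it in DESeq2. With the replicate block they were 1137 and 1071, and with the block and the length and GC correction 436 and 377. With a library left out they ranged from 2 (without WT replicate 1) to 2424 (without KD replicate 1) lower and from 0 to 2320 higher, and a lone library was then assumed to vary like the other group. Including all chromosomes or using DESeq2 size factors left both at 0. In either direction, 2139 of 15068 tested genes were called without a filter on low counts. With the replicate block 2208 of 10963 were called, and 813 of 10963 with the block and the correction. The calls of members and list genes given next stand beside these numbers for all genes, and an excess over them was not tested.

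Called members numbered 1 with DESeq2 (H1-10) and 1 with the length and GC correction in DESeq2 (H2AJ), 2 without a filter (H1-10 and H2AJ), 2 with the replicate block (H1-10 and H2AJ) and 1 with the block and the correction (H2AJ), and from 0 to 3 with a library left out (H1-10, H2AJ and H2AX without KD replicate 1). Called list genes numbered 2 with DESeq2, 1 with DESeq2 on all chromosomes, 6 without a filter, 1 with the correction in DESeq2, 6 with the replicate block, 1 with the block and the correction, and from 0 to 11 with a library left out. Directions turned for H2AX with the correction in edgeR (-0.31), in DESeq2 (-0.15) and with the block (-0.31) and without KD replicate 2 (-0.03, against 0.62 without KD replicate 1), for H3-3A with the correction (0.21, 0.23 and 0.21 with the block) and without KD replicate 2 (0.00, against -0.18 without KD replicate 1), and for H2AZ1 without WT replicate 2 (0.03) and without KD replicate 1 (0.18, against -0.25 without KD replicate 2). MACROH2A1, H2AZ2, H3-3B, H2AJ and H1-10 kept their direction in all 14 settings. The causes were not tested.

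With a library left out, the change of the H3-3B share ranged from -0.384 to 0.473 points and that of the H2AZ2 share from -10.1 to -3.41, and the MACROH2A2 share stayed at 0. Members with an mH2A1.1 peak at the start numbered 2 when the peak had to share 1 bp with an mH2A1 peak, 2 when 50% of it had to be covered, 2 for mH2A1 peaks, and 3 at MANE Select starts, an alternative chosen after seeing the data, as were shares per kilobase of the MANE Select transcript. MACROH2A2, with 0 counts, could not be tested, and H2AJ and H1-10 had 74 and 118 counts in KD replicate 2.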
